A study of Schizosaccharomyces pombe with 27 samples.

Results

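Polδ activity was compared between 2 S. pombe strains that both report on Polδ: a wild-type strain (WT) and a strain with 1 extra set of the 4 Polδ genes (2×Polδ). The 2 strains account for 6 of 27 samples, for 4 of 18 libraries once the 2 sequencing runs of experiment 1 are summed, and for 2 of 9 strains, and they were chosen by strain and by reporter polymerase with no use of measured values. Both strains are of mating type h- with the same marker alleles of ade6 and leu1 and the same deletion of ura4, both lack rnh201, and in both the only catalytic subunit of Polδ carries a leucine-to-glycine change. The 2×Polδ strain carries in addition a cassette with cdc1, cdc27, ura4, the mutated cdc6 and cdm1 on chromosome I, and its rnh201 deletion is marked with hygR where that of WT is marked with kanR. Cells were untreated and grew exponentially in YES medium. Each genotype is represented by 1 strain, so an effect of the extra genes and any other difference between the 2 strains cannot be told apart. Values of WT and 2×Polδ strains that report on Polε or Polα are set beside these in places. Those strains also lack rnh201 but carry a mutated cdc20 (Polε) or pol1 (Polα), and their cdc6 is unmutated, also in the 2×Polδ cassette. For the WT Polε strain the ade6 allele is not specified.

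Polδ is the polymerase that makes the lagging strand at a replication fork, while Polε makes most of the leading strand and Polα starts each strand with a short primer. The mutated Polδ inserts ribonucleotides into the DNA it makes, and without rnh201, which encodes the catalytic subunit of RNase H2, these ribonucleotides stay in place and mark the strand that Polδ synthesised. Pu-Seq (polymerase usage sequencing) maps them. Cdc6 is the catalytic subunit of Polδ, Cdc1 and Cdc27 are its B and C subunits, Cdc27 binds the sliding clamp PCNA, and Cdm1 is a small accessory subunit. The residue changed in the reporter allele lies in the cdc6 coding sequence of chromosome II, and 27 bases around it are shown since the Polδ counts rest on the enzyme this codon change creates. The stretch runs from 2745653 to 2745679 on the forward strand of the RefSeq assembly ASM294v3, with the leucine codon of the reference in capitals.
cdc6: gattttagttcaCTTtatccttcgatt

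Ribonucleotides were counted on the top strand (f) and the bottom strand (r) in 41908 bins of 300 bp. The Polδ track is (f − r)/(f + r), so it runs from -1, with all Polδ counts on the bottom strand, to 1, with all on the top strand. It is positive where forks move leftward and negative where they move rightward. Totals were 38809643 and 17910616 counts in experiments 1 and 2 of WT and 38822691 and 19799356 in those of 2×Polδ, and the median bin held 414 to 849 counts. A bin of experiment 2 therefore carries fewer counts than one of experiment 1, and its track a larger counting error. The 2 runs of experiment 1 differed little more than counting error allows (chi-square per degree of freedom of 1.11 in WT and 1.10 in 2×Polδ) and were summed, whereas the 2 experiments of a strain differed far more (25.6 and 36.9).

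The extra gene set was visible in the counts themselves. Relative to library size and to WT of the same experiment, counts over the 4 Polδ genes were 1.92 times those of WT in experiment 1 and 2.02 times in experiment 2 (mean 1.97 ± 0.073, SD, n = 2 experiments). The 2×Polδ and WT libraries did not overlap (two-sided exact permutation test, p = 0.33, the smallest p that 2 libraries against 2 allow). By gene, the ratio was 1.83 and 2.07 for cdc1, 1.94 and 2.00 for cdc27, 1.93 and 1.98 for cdc6 and 1.98 and 2.04 for cdm1. The 4 genes thus gained by a similar factor in both experiments. The act1 gene, which encodes actin and was not copied, had ratios of 1.01 and 1.09. The rnh201 gene held 970 and 564 counts in WT and 1002 and 519 in 2×Polδ, with ratios of 1.03 and 0.832. Per bin, these were 0.25 and 0.30 of the library's median bin in WT and 0.27 and 0.25 in 2×Polδ. The same measure was 0.955 to 1.16 for act1. The ura4 gene is removed at its native locus in both strains and comes back with the cassette. It held 26 and 0 counts in the WT libraries of experiments 1 and 2, and 3140 and 1722 in those of 2×Polδ.

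**Figure D1:**
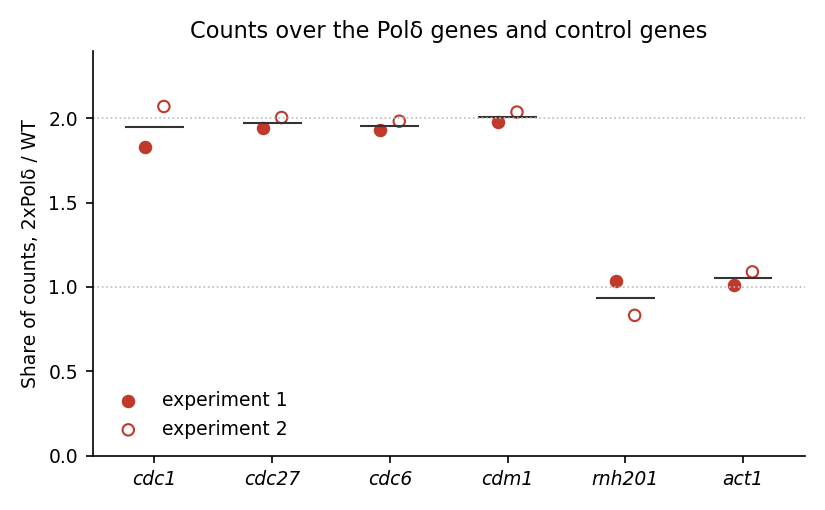
Share of library counts over each gene in 2×Polδ divided by that in WT of the same experiment, for the 4 Polδ genes and for rnh201 and act1. Filled points are experiment 1, open points experiment 2 and bars their mean; the 4 Polδ genes lie between 1.83 and 2.07, while act1 and rnh201 lie between 0.832 and 1.09.

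Total counts were then tested across the genome with edgeR's quasi-likelihood test, with experiment as a block. Of 41876 bins tested, 114 differed at an adjusted p of 0.05 (0.272%), 104 of them higher (0.248%) and 10 lower (0.0239%) in 2×Polδ. Of the 60 bins within 1 kb of a copied gene, 54 were called, and all 54 were higher. The remaining 60 called bins, 50 of them higher, lay elsewhere. Bins inside ura4 could not enter this test, which needs at least 10 counts in every library. WT of experiment 2 held 0 counts there. The leading bin of the copied fragments was chromosome II 1061701 to 1062000 in cdc27, whose CPM (counts scaled to the library total) was 26.3 and 11.6 in WT and 61.4 and 32.6 in 2×Polδ (log2 fold change 1.36, standard error 0.11, adjusted p = 4.1e-33 from edgeR). The called bins ran without a gap over 22 bins at cdc6, 12 at cdc27, 11 at cdc1 and 9 at cdm1, so the rise took in DNA on both sides of each gene. The leading bins of the other 3 fragments had log2 fold changes of 1.13 in cdm1, 1.06 in cdc6 and 1.09 in cdc1 (adjusted p = 1.5e-23, 2.5e-23 and 6.6e-21 from edgeR). For cdc6 the stretch ended at 2749500 on chromosome II and reached into rnh1, the gene of RNase H1, whose counts were 1.52 times those of WT. Of 35 replisome genes examined (Polα-primase, Polε, clamp and loader, helicase, Okazaki fragment processing and RNase H), rnh1 was the only one with a ratio above 1.2, and the lowest was 0.923 for spp2, a primase subunit.

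In 3 kb windows, 68 of 4192 differed in total count (1.62%), 43 higher (1.03%) and 25 lower (0.596%). Scaled to library totals in place of TMM, 26 windows differed, with 10 higher and 16 lower, so the balance of directions turned with the scaling. The strongest were the windows of the copied genes. The cdc6 window II 2745001 to 2748000 had a CPM of 228 and 233 in WT and 442 and 465 in 2×Polδ (log2 fold change 0.99, adjusted p = 2.7e-54 from edgeR). The ura4 window III 114001 to 117000 had a CPM of 104 and 98.4 in WT and 205 and 206 in 2×Polδ (log2 fold change 1.04, adjusted p = 6.3e-28). Windows at cdc27, cdm1 and cdc1 had log2 fold changes of 0.80, 0.77 and 0.84, and by adjusted p they ranked between the cdc6 and ura4 windows. The groups did not overlap in any of these 5 windows. They lead the test on these same libraries, which favours such a separation. Without the block no bin and no window was called (52 and 17 at an unadjusted p of 0.05), and DESeq2 with the block called 70 bins and 28 windows.

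The windows that fell were nearly all at Tf2 elements, the LTR retrotransposons of S. pombe, which are present in many near-identical copies. Of the 25 windows with fewer counts, 21 overlapped one of the 13 annotated full-length Tf2 elements, and each of the 13 elements had at least 1 such window and none that rose. Over the 13 elements together, 0.453% and 0.438% of counts fell in WT and 0.372% and 0.373% in 2×Polδ, which is 0.821 and 0.853 times the share in WT. Both 2×Polδ libraries were thus below both WT libraries. The lowest ratios were those of Tf2-8 (0.754 and 0.809) and Tf2-7 (0.767 and 0.799), which neighbour each other on chromosome I from 5191060 to 5199712, and the means of the other 11 ranged from 0.827 to 0.873. The other 4 windows that fell lay at II 1620001, II 1626001, III 1101001 and III 1224001. The window I 5193001 to 5196000 over both had a log2 fold change of -0.37 (adjusted p = 3.9e-19 from edgeR). Single bins inside them fell further, with log2 fold changes of -0.82 at 5193301 in Tf2-7 and -0.81 at 5197801 in Tf2-8. How the deposited counts assign reads that match several copies is not given in the sources used here, so values of single elements are uncertain. The elements were grouped after their values were seen.

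The strains that report on Polε and Polα gave other values over the same elements. In the Polε strains the share of counts over Tf2 in 2×Polδ was 1.01 and 1.04 times that in WT, and in the Polα strains 1.09 and 0.958 times. Of the 13 elements, all 13 were lower in both experiments with the Polδ reporter and 0 with the Polε or Polα reporter. For Polα this reflects experiments that differed, with element ratios of 1.05 to 1.16 in experiment 1 and 0.925 to 1.02 in experiment 2. The same count over all genes or windows was not taken. The difference between reporters was not tested. Each reporter was measured in its own pair of strains, so reporter and strain cannot be told apart.

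**Figure D2:**
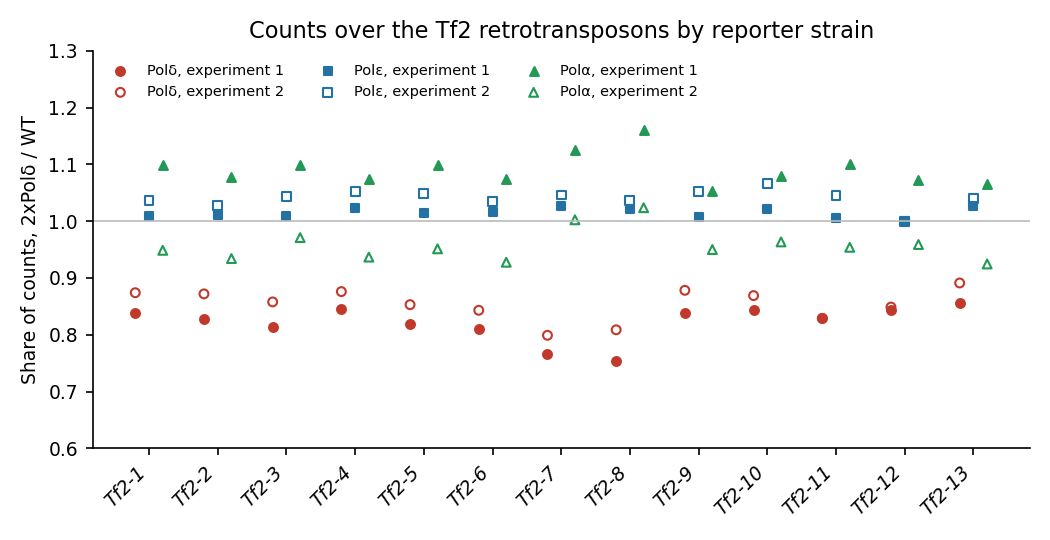
Share of library counts over each of the 13 Tf2 elements in 2×Polδ divided by that in WT of the same experiment, for the strains reporting on Polδ (circles), Polε (squares) and Polα (triangles), with filled symbols for experiment 1 and open symbols for experiment 2. All 26 Polδ points lie below 1, the lowest being Tf2-8 in experiment 1 at 0.754; the vertical axis starts at 0.6.

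The track over most of the genome was close in both strains. Across 3 kb windows, the tracks of 2×Polδ and WT correlated with r = 0.993 in experiment 1 and r = 0.991 in experiment 2, against r = 0.988 between the 2 WT experiments, and the slope of 2×Polδ on WT was 1.00 and 1.02 (windows of the same libraries, given as a description). The mean difference was under 0.1 in size in 4016 of 4192 windows (95.8%). Small differences nevertheless recurred: the difference 2×Polδ minus WT in experiment 1 correlated with that in experiment 2 with r = 0.811 over windows. Outside the copied genes and 50 kb around the integration site it did so with r = 0.762.

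With experiment as a block, the strand-by-genotype term passed an adjusted p of 0.05 in 1357 of 41876 bins (3.24%), with 661 tracks higher (1.58%) and 696 lower (1.66%), and in 1489 of 4192 windows (35.5%), with 727 higher (17.3%) and 762 lower (18.2%). In 1484 of the 1489 windows the difference had one sign in both experiments, which selection by this blocked test on the same libraries favours. Most of the called changes were small, with a median size of 0.059 on the track scale against 0.028 over all windows tested, and 176 windows reached 0.1 and 19 reached 0.2. Called bins differed by more, with a median size of 0.184. Without the block, 0 bins and 6 windows were called (156 and 149 at an unadjusted p of 0.05), and all 6 windows lay beside the integration site. DESeq2 with the block called 101 bins and 267 windows. Of the 1489 windows, 944 moved away from 0, 545 towards it, and 88 changed sign. Of the 35 replisome genes, 16 touched a called window, where the background is 35.5% of single windows and a long gene touches more than 1, and the largest mean difference at any of them was 0.122 in size, at spp1, a primase subunit.

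**Figure D3:**
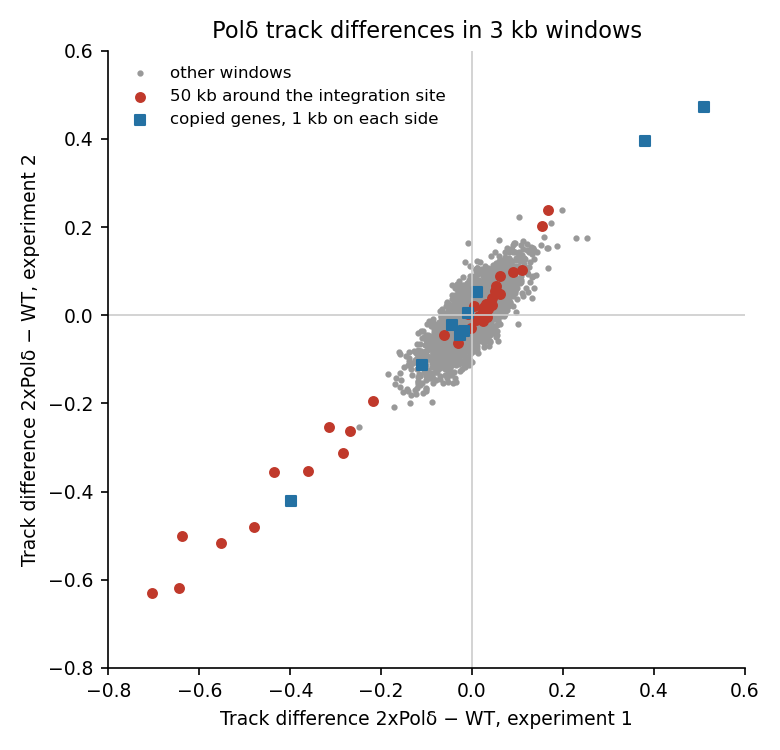
Difference in the Polδ track, 2×Polδ minus WT, in each 3 kb window in experiment 1 (horizontal axis) and experiment 2 (vertical axis). Most windows (grey) lie within 0.1 of 0, while the windows left of the integration site (red) reach -0.705 and -0.630 and the cdc27 window (blue) 0.511 and 0.472.

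The largest change lay next to the inserted cassette. The integration site falls in the bin 5230801 to 5231100 of chromosome I, between dad3, which encodes a subunit of the DASH kinetochore complex, and mek1, a meiotic checkpoint kinase, and 2.7 kb left of an origin with an efficiency of 69.4% in WT. In WT the Polδ track rose from 0.126 and 0.0988 at I 5199001 to 0.732 and 0.709 at the site, the sign of forks that leave that origin leftward. In 2×Polδ the track was lower in all 11 windows from 5199001 to 5232000, a stretch of 33 kb, by 0.206 to 0.667 (mean of both experiments), and all 11 were called with the block and by DESeq2.

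The lead window, I 5205001 to 5208000 over pyp2 (a tyrosine phosphatase of the stress kinase pathway), emc10 (a subunit of the ER membrane complex) and cid1 (a poly(U) polymerase), had a track of 0.264 and 0.206 in experiments 1 and 2 of WT and of -0.441 and -0.424 in those of 2×Polδ. The term was -2.05 on the log2 scale (standard error 0.06, adjusted p = 2.0e-252 with the block, 0.012 without it, edgeR). The preferred strand was thus the top strand in both WT libraries and the bottom strand in both 2×Polδ libraries. At 5199001 the track of 2×Polδ was -0.236 and -0.253, and at 5202001 from 0.351 and 0.311 to -0.294 and -0.308. Of the 11 windows, 5 thus carried a negative track in both 2×Polδ libraries and a positive one in both WT libraries. Towards the site the difference became smaller. At 5214001 in ptr1, a ubiquitin ligase gene, the track was 0.511 and 0.494 in WT and 0.0309 and 0.0143 in 2×Polδ, and at 5229001, which holds the site, 0.732 and 0.709 against 0.464 and 0.446. The 2 libraries of a strain lay closer to each other than to those of the other strain in each of these windows, all of them called on these same libraries.

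At the left edge of the stretch, the windows at 5193001 and 5196001, over Tf2-7 and Tf2-8, differed by 0.054 and 0.053 and by 0.061 and 0.089, in the opposite direction, so the fall began in the window where Tf2-8 ends. Farther left, at 5187001 over mic10, the track rose by 0.168 and 0.239. On the right the fall became smaller but did not stop at the site, since the next 2 windows, at 5232001 and 5235001, were also called lower, with mean differences of -0.054 and -0.047. In the 50 kb right of the site 6 of 16 windows were called, these 2 included, where the background is 35.5%, and the median difference of all 16 was 0.016. The largest difference among the 16 was a rise of 0.154 and 0.203 at 5271001, which was called. Total counts were lower in the window 5199001 to 5202000 of the stretch, with a log2 fold change of -0.22, and in the 3 windows left of it from 5190001 over Tf2-7 and Tf2-8, with -0.19, -0.37 and -0.34. They were not called in the windows from 5202001 to 5232000. In single bins the fall formed a run of 74 called bins from 5200201 to 5222400 and one of 28 from 5222701 to 5231100. The lead bin of the first, at 5207101 in cid1, went from 0.464 and 0.328 to -0.298 and -0.408, and that of the second, at 5229901 in dad3, from 0.549 and 0.575 to -0.0136 and 0.0539 (adjusted p = 1.0e-39 and 8.2e-19 from edgeR, both 1 without the block). The bin that holds the site, the last of this run, had a track of 0.779 and 0.743 in WT and 0.542 and 0.393 in 2×Polδ. The next bin was not called, and the 3 bins after it, up to 5232300, were called lower (adjusted p = 1.2e-05, 0.0025 and 0.014 from edgeR). Besides the genes named, the stretch holds imp3, din1, uga1 and ctf8, the last a subunit of the alternative clamp loader that acts in sister chromatid cohesion, and smc5 of the Smc5/6 complex.

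The other reporters mostly moved in the same direction. In the 11 windows, the Polα track fell in both experiments in 11, by 0.096 to 0.202 on average, and the Polε track with its sign turned fell in both experiments in 9, by 0.052 to 0.432 on average over all 11. The exceptions were the windows at 5226001 and 5229001, where the Polε track with its sign turned rose by 0.048 and 0.026 in experiment 2. At 5205001 these differences were -0.462 and -0.401 for Polε with the sign turned, and -0.162 and -0.186 for Polα, against -0.705 and -0.630 for Polδ. Whether the reporters differ was not tested.

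**Figure D4:**
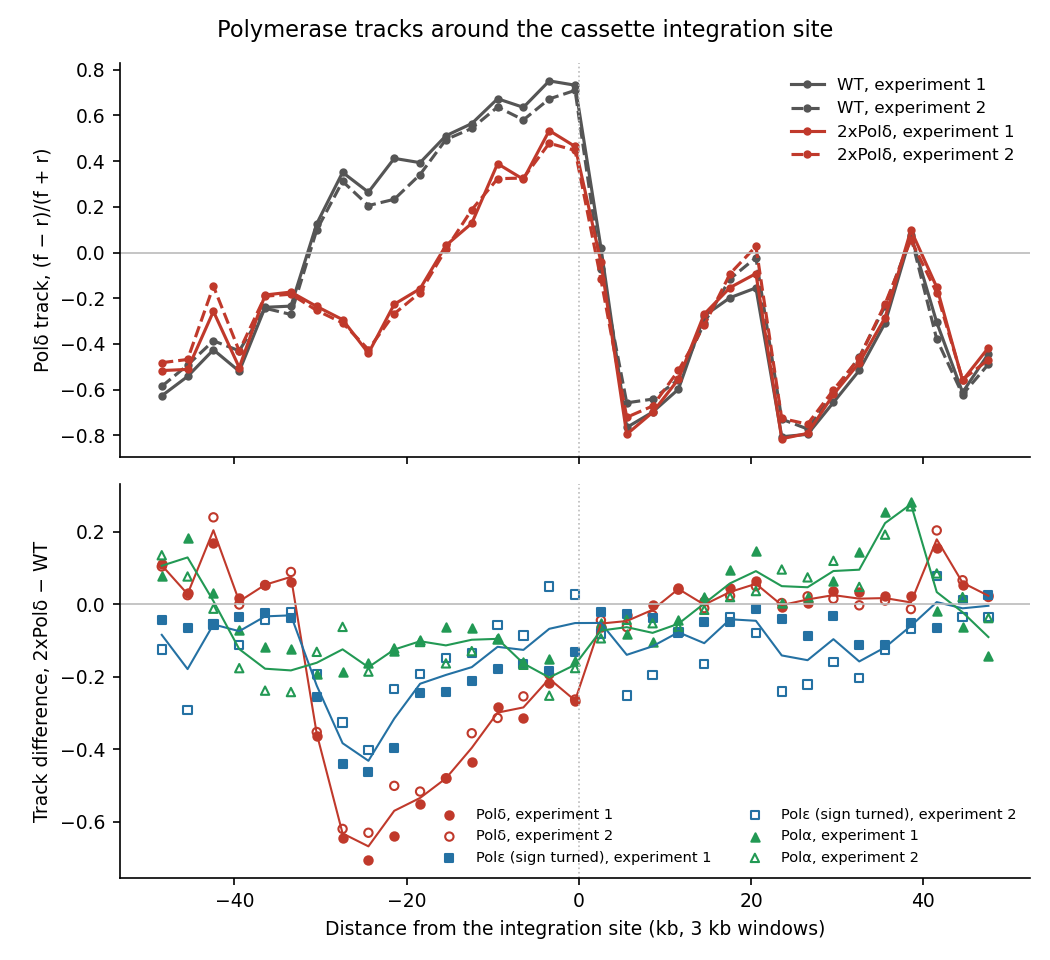
Top, Polδ track in 3 kb windows within 50 kb of the integration site in WT (grey) and 2×Polδ (red), experiment 1 as solid and experiment 2 as dashed lines. Bottom, difference 2×Polδ minus WT for Polδ, Polε with the sign turned and Polα, with filled symbols for experiment 1, open symbols for experiment 2 and lines for their mean; the mean Polδ difference reaches -0.667 left of the site and lies between -0.054 and 0.178 right of it.

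Counts over a copied gene come from the native locus and from the cassette at once, since reads of both map to the native position. The largest track changes were at 2 of the 4 genes. In the window I 4014001 to 4017000 over cdc1, the track was 0.763 and 0.727 in WT and 0.365 and 0.305 in 2×Polδ (log2 term -1.77, standard error 0.07, adjusted p = 1.4e-140 with the block, 0.066 without it, edgeR). In the window II 1062001 to 1065000 over cdc27 it was -0.423 and -0.337 in WT and 0.0880 and 0.135 in 2×Polδ (log2 term 1.49, adjusted p = 1.9e-118, 0.094 without the block). The cdc1 track kept its sign and the cdc27 track changed sign, and WT and 2×Polδ did not overlap at either. Both windows were named for a small adjusted p in these same libraries, so the separation is no further evidence. The lead bins lay in the flanks of these genes, at I 4017001 in msm1 (0.839 and 0.790 in WT, 0.381 and 0.178 in 2×Polδ) and at II 1064101 in fol1 (-0.586 and -0.199 in WT, 0.129 and 0.421 in 2×Polδ), with an adjusted p of 2.5e-41 and 1.4e-33 from edgeR. Over cdc6 and cdm1 the tracks stayed near those of WT, with -0.649 and -0.616 against -0.654 and -0.641 for cdc6 and 0.693 and 0.545 against 0.651 and 0.558 for cdm1.

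The counts that 2×Polδ had beyond WT, taken per strand after scaling to library size, give an estimate of the track of the added copy. It assumes that strand use at the native copy was as in WT, which was not tested. Turned to each gene's own sense strand, so that a positive value means Polδ on the strand with the sense sequence, the added track was -0.301 and -0.203 for cdc1, -0.823 and -0.852 for cdc27, -0.659 and -0.667 for cdc6 and -0.608 and -0.570 for cdm1. For ura4, which only the cassette supplies, it was -0.872 and -0.824. All 5 genes, which are named in the order cdc1, cdc27, ura4, cdc6 and cdm1 in the cassette, had most of their added Polδ counts on the antisense strand in both experiments, and cdc1 at one end had the weakest bias. The native copies showed no common side, since the WT track turned to the sense strand was 0.779 and 0.731 for cdc1, 0.30 and 0.23 for cdc27, -0.649 and -0.616 for cdc6 and -0.693 and -0.545 for cdm1.

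Away from the site and the copied genes, 1460 of 4148 windows were called, and 4 of them reached a difference of 0.2. Near the right end of chromosome I the track fell over 7 windows from 5538001 to 5559000. Its lead window, 5541001 to 5544000 over gdt1, went from 0.345 and 0.272 to 0.0964 and 0.0196 (log2 term -0.75, adjusted p = 4.4e-33 with the block, 0.87 without it, edgeR), and there the Polε track with its sign turned moved by -0.23 and -0.19 and the Polα track by -0.22 and -0.18. In ssn6, which encodes a general corepressor, the bin II 3863401 to 3863700 rose from -0.406 and 0.337 to -0.0902 and 0.680. That bin differed more between the 2 WT experiments than between the strains. Over the window around it, II 3861001, the Polδ track rose by 0.198 and 0.239, while the Polε track with its sign turned moved by -0.061 and 0.198 and the Polα track by -0.11 and 0.050. Among the 158 called windows elsewhere that reached 0.1, the mean Polα difference had the sign of the Polδ difference in 130. That of Polε with the sign turned had it in 121, and both had it in 99. The same share over all windows was not taken, so these counts have no background beside them. Over all 4192 windows, the Polδ differences correlated with those of Polε with the sign turned with r = 0.071 in experiment 1 and 0.412 in experiment 2, and with those of Polα with r = 0.387 and 0.391 (a description over windows).

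By region, the share of called track windows was 65.7% within 50 kb of the integration site (23 of 35), 66.7% at the copied genes (6 of 9), 40.8% within 50 kb of chromosome ends, 37.5% between mat1 and mat3, 14.5% in the centromeres and 35.3% in the rest, against the background of 35.5%. Centromeres, whose repeats are not marked in the annotation and were placed approximately, stood below the background, with 8 of 55 windows called.

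The study asks whether more Polδ lets it take part in leading-strand synthesis. To put that question to the counts, fork direction was taken from the WT Polε and Polα libraries alone, and 12085 bins (28.8%) in which it was at least 0.5 in size were kept. The leading strand was set by the net fork direction of each bin. Lagging-strand counts of forks running the other way were not separated out, so the share does not measure leading-strand synthesis alone. In these bins, 17.4% and 20.1% of Polδ counts of WT lay on the strand so assigned in experiments 1 and 2, and 17.9% and 20.6% of those of 2×Polδ. The difference was 0.471 and 0.529 percentage points (mean 0.50, SD 0.041, n = 2 experiments), so the share was higher in 2×Polδ within each experiment. The 2 WT experiments themselves varied with an SD of 1.92 points. That spread, like those given below for origins and zones, takes in any difference of protocol and depth between the experiments. A two-sided unpaired exact permutation test of 2 libraries against 2 gave p = 0.67, and the design cannot give a p below 0.33. The sign depended on the measure, as the difference was -0.054 when counts were summed over bins in place of a mean of shares and -0.036 with fork direction from Polα alone. Without the copied genes and the 50 kb around the site it was 0.396.

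Origins were called from the same WT Polε and Polα tracks, giving 268 with an efficiency of at least 40%. The amplitude, 0.5 times the difference between the mean track 0.9 to 3 kb left and right of them, was 0.591 and 0.548 in WT and 0.594 and 0.554 in 2×Polδ. The amplitude was higher in 2×Polδ within each experiment by 0.0029 and 0.0060 (SD of the differences 0.0022), while the WT experiments varied with an SD of 0.031 (n = 2; unpaired exact permutation test, p = 0.67). At 240 origins of 20 to 40% the amplitude was 0.243 and 0.217 in WT and 0.244 and 0.219 in 2×Polδ. These origins differed by 0.0017 and 0.0026 within the 2 experiments. At the most efficient origin, I 3952801 to 3953100 with 80.9%, which lies in no annotated gene, the track left of the origin was 0.858 and 0.748 in WT and 0.849 and 0.798 in 2×Polδ, and right of it -0.816 and -0.773 against -0.771 and -0.758.

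Farther from efficient origins, more of the Polδ counts lay on the strand that is leading for forks leaving that origin, in both strains. This strand was set by position alone, and forks arriving from other origins were not separated out, so the rise does not measure leading-strand synthesis. From 0.9 to 3 kb the share was 20.5% and 22.6% in WT and 20.3% and 22.3% in 2×Polδ, and from 9 to 15 kb 39.1% and 39.6% in WT and 39.2% and 39.6% in 2×Polδ. The strains differed by at most 0.34 percentage points in any of 4 distance classes. In each class up to 9 kb the share was lower in 2×Polδ in both experiments, and from 9 to 15 kb it was higher by 0.020 and 0.028 points. The sign up to 9 kb was thus opposite to that of the leading-strand share in bins chosen by fork direction. Within 0.3 kb of the origin centre the libraries of experiment 2 parted, with a mean track of -0.0107 in WT and 0.0541 in 2×Polδ at the centre, while those of experiment 1 were -0.219 and -0.210. In experiment 2 the mean count at the centre was 0.407 and 0.367 of the genome mean in the 2 strains, against 0.785 and 0.866 in experiment 1.

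**Figure D5:**
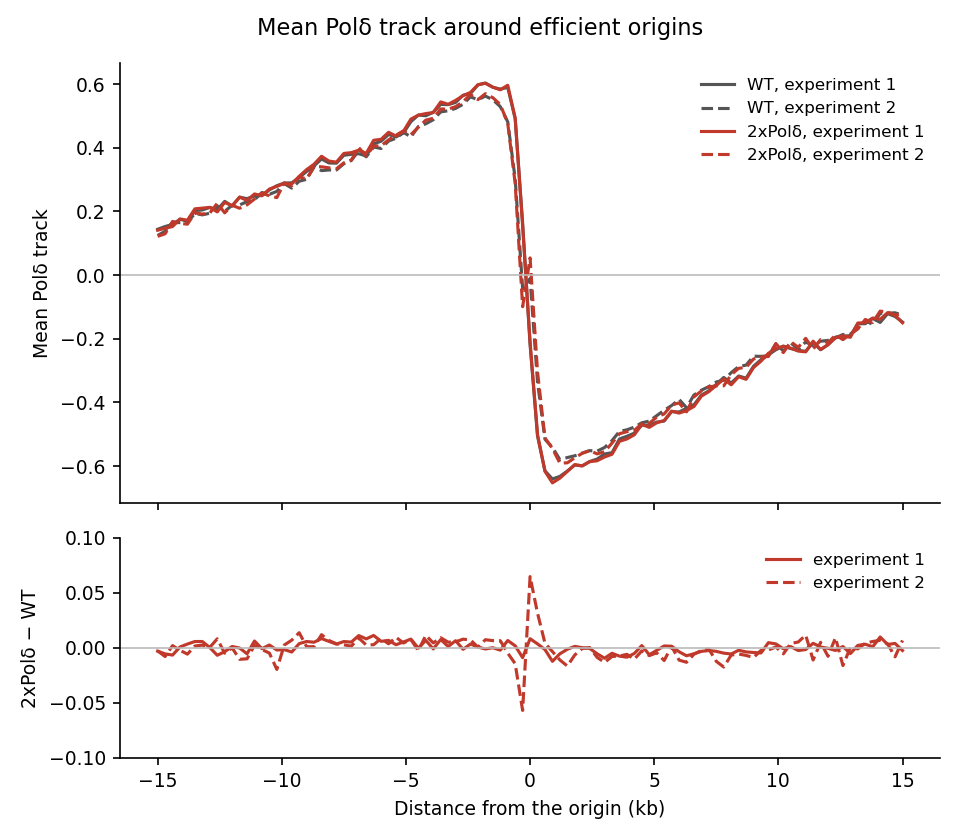
Mean Polδ track around 268 efficient origins (top) and its difference 2×Polδ minus WT (bottom) in 300 bp bins up to 15 kb from the origin, experiment 1 as solid and experiment 2 as dashed lines. The strains overlie each other within each experiment, except in experiment 2 at the centre, where WT is at -0.0107 and 2×Polδ at 0.0541.

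Termination zones, 148 in all with a median length of 31.6 kb, were taken as the DNA from 1 efficient origin to the next where no weaker origin of 20% or more intervened. Pairs of origins fewer than 20 bins apart, the number of parts into which each zone was split, were left out. The amplitude there, 0.5 times the rise of the track, was 0.511 and 0.455 in WT and 0.518 and 0.460 in 2×Polδ. The difference of 0.0070 and 0.0050 had the same sign in both experiments (SD of the differences 0.0014), while the WT experiments varied with an SD of 0.040 (unpaired exact permutation test, p = 0.67).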

How the data were processed

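Per the labels, genomic DNA of exponentially growing cells was processed by Pu-Seq or a modified version of it, and per the submitters' processing notes reads were mapped with Bowtie2 to ASM294v2. The authors deposited raw counts of ribonucleotides per strand in 300 bp bins, 1 pair of strands per run, with no normalization. Which of the 2 experiments used which protocol is not given in the sources used here, nor are the version of Bowtie2 and the handling of repeated reads. Genes, and the sequence shown, come from ASM294v3 (RefSeq), whose chromosome lengths match the bins.

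Runs of experiment 1 were summed and experiments paired. Deviations from the strain means correlated between WT and 2×Polδ of one experiment (r = 0.879 over windows), and the labels number the experiments, so experiment was a block. Bins and windows with at least 10 counts in every library entered edgeR's quasi-likelihood test (version 4.0.16, R 4.3.3; strand by genotype for tracks, genotype after TMM scaling for totals) at an adjusted p of 0.05 (Benjamini-Hochberg). With the block, each bin has 1 residual degree of freedom and its spread is estimated largely from all bins together. P-values measure only the spread between these libraries, which may be technical. Alternatives were no block, DESeq2 1.42.0, other scalings, count minimums (none, 50), windows of 1.5 and 9 kb, first run only and left-out libraries. Values were computed in Python 3.11.15.

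Named are, per test, the 5 regions with the smallest adjusted p and 1 sign in both experiments, the copied and control genes, the integration site, the most efficient origin and the replisome and region lists. Members and lists were chosen with earlier results of these data known. The Tf2 elements were added after seeing values. One of the 20 regions that this rule names is not reported here.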

Additional observations from a re-analysis of the deposited data

Results flagged for a closer look

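The share of counts over the 13 Tf2 elements fell in both experiments of the Polδ strains, with log2 ratios of 2×Polδ to WT of -0.28 and -0.23 (mean -0.26), and rose in both experiments of the Polε strains, with 0.021 and 0.057. The difference between the reporters was not tested.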

How the results depend on the processing

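Without the replicate block, the counts of called features were 0 (track bins), 6 (track windows), 0 (total bins) and 0 (total windows), and with any 1 of the 4 libraries left out and no block they ranged from 0 to 11, 12 to 18, 0 to 10 and 0 to 6. DESeq2 called 101, 267, 70 and 28, of which 101, 267, 58 and 28 were shared with edgeR. The first run of experiment 1 alone gave 827 track bins, library totals without TMM gave 26 total windows (10 higher, 16 lower), and 9 kb windows gave 565 of 1398. The other alternatives of these counts (count minimums, TMM scaling of each strand, windows of 1.5 kb) stayed within 1.5 times. Of the 20 leading bins and windows, 1 kept its call without the block and all 20 did with DESeq2, and the log2 term of the bin II 3863401 ranged from -0.11 (without 2×Polδ experiment 2) to 2.55 (without 2×Polδ experiment 1) when a library and the block were left out.

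The difference in leading-strand share turned to -0.036 with fork direction from Polα alone and to -0.054 with summed counts. It ranged from 0.471 to 0.529 with 1 experiment left out, was up to 0.90 in the other alternatives, and was 0.396 outside the site and the copied genes, an alternative chosen after seeing the data. The origin amplitude turned to -0.0023 with flanks of 0.3 to 1.5 kb and ranged from 0.0029 to 0.0060 with 1 experiment left out. The zone amplitude (0.0050 to 0.0070) and the copy ratio (1.92 to 2.02) kept their direction in each alternative run. Causes were not tested. With 2 libraries per strain no exact test of a single value can reach 0.05, and experiment 2 has fewer counts per bin.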
